A study of Mus musculus with 6 samples.

Results

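The connexin genes described here are 8 of the 32285 genes in the count table, chosen by name: Gja1, Gjb6, Gjb2, Gjb1, Gjc3, Gja4, Gja5 and Gjc1. They were followed across the cell clusters, astroglial sub-clusters, pseudotime bins and ages that the deposited annotation gives. Astroglia had been enriched from the striatum of wild type male C57BL/6 mice with magnetic beads that bind the astrocyte surface antigen ACSA2. Mice were taken 3 days after birth (P3) or when aged 3 months (3m), with 3 droplet single-cell libraries per age. Brains of several animals were pooled for each preparation, the subventricular zone was left out in the dissection, and no further genotype or treatment separated the groups. A library is the replicate throughout, and an expression level is given as CPM, the unique molecular identifiers (UMIs) of a gene in the cells summed, scaled to a total of 1000000 UMIs.

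Connexins are the subunits of gap junctions. Subunits assemble into rings, the hemichannels, in the membrane of a cell, and hemichannels of neighbouring cells dock to form a pore for ions, metabolites and second messengers. Astrocytes are coupled into networks through Gja1 (connexin Cx43) and Gjb6 (Cx30), with Gjb2 (Cx26) as a further astrocyte subunit, whereas oligodendrocytes use Gjb1 (Cx32) and Gjc3 (Cx29), among others. Endothelial cells and the smooth muscle cells and pericytes of the vessel wall, together called mural cells, use Gja4 (Cx37), Gja5 (Cx40) and Gjc1 (Cx45).

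Of the 16690 barcodes, 14373 carried a cluster name in the annotation and 9992 of these an astroglial sub-cluster. Astroglial cells numbered 213, 546 and 359 in the 3m libraries against 1985, 3103 and 3786 at P3, and their summed depth ran from 1157485 to 30617140 UMIs per library. The median astroglial cell held 3631 UMIs at 3m and 7307 at P3, and the median mitochondrial share per library lay between 5.97% and 8.18% at 3m and between 1.27% and 2.47% at P3. Several units came almost whole from 1 library: sub-cluster 1 from P3 replicate 1 (1156 of 1211 cells), sub-clusters 4 and 12 and the clusters AST_P3_4 and END_12 from P3 replicate 3, sub-cluster 14 from 3m replicate 1 (182 of 184 cells) and the oligodendrocyte cluster ODC_10 from 3m replicate 1 (458 of 503 cells). Of 16653 distinct barcodes, 37 occurred in more than 1 library. In the astroglia, the 6 astrocyte markers summed to 13384 CPM at 3m and 5347 CPM at P3 (6 of 6 detected at each age), and oligodendrocyte markers summed to 1371 CPM at 3m and 5.80 CPM at P3.

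All 8 genes are protein-coding. In the mouse annotation of build GRCm38, the build of the count files, Gja1 lay on chromosome 10 (56377330 to 56402513, plus strand), Gja4 on chromosome 4 (127311421 to 127314039, minus strand), Gja5 on chromosome 3 (96904693 to 97077416, plus strand) and Gjc1 on chromosome 11 (102799579 to 102819700, minus strand). Gjb1 lay on chromosome X (101376378 to 101385629, plus strand) and Gjc3 on chromosome 5 (137953461 to 137963098, minus strand). Gjb2 (57098600 to 57104702) and Gjb6 (57123303 to 57133611) were neighbours on the minus strand of chromosome 14, with a gap of 18600 bases and 1 further gene model, Gm4491, between them. The open reading frame sat in 1 exon in every annotated coding transcript of 6 of the 8 genes. It was split over 2 exons in Gjc3 and in some transcripts of Gja5. Only Gja5 overlapped other genes, 4 of them, all on the opposite strand, and how reads were assigned by strand is not given in the sources used here. The longest open reading frames encoded 382 residues for Gja1, 261 for Gjb6, 226 for Gjb2 and 396 for Gjc1.

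The neighbours Gjb2 and Gjb6 and the main astrocyte gene Gja1 moved in the same direction with age, so the 250 bases before the RefSeq start of each are shown, 5′ to 3′ on the strand of the gene, from build GRCm38.p6. The window of Gja1 was chr10:56377050-56377299, that of Gjb6 chr14:57133612-57133861 and that of Gjb2 chr14:57104703-57104952. Capitals mark matches on either strand to 4 motifs that were searched: TATAAA (the TATA box), GGGCGG (the GC box), ACAAT (a core of SOX factor sites) and TTGGC (a core of nuclear factor I sites).
Gja1: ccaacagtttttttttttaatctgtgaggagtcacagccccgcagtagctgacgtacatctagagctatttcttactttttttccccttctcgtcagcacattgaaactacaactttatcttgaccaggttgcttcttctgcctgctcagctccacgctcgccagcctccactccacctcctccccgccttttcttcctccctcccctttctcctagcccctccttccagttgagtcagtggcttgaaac
Gjb6: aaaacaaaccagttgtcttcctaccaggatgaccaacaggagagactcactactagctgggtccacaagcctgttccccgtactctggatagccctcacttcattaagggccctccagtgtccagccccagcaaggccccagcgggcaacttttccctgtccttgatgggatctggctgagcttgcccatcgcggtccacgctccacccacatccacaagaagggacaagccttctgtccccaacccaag
Gjb2: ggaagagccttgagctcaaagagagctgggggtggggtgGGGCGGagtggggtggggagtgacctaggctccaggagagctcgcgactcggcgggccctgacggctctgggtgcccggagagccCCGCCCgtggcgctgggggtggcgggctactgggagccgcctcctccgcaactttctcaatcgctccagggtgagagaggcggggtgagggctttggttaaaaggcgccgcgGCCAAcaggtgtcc
The Gjb2 window held 2 matches to GGGCGG and 1 to TTGGC and was 69.2% G or C, against a median of 52.4% over 32851 windows of this length. The windows of Gja1 (50% G or C) and Gjb6 (56.8%) held no match to any of the 4 motifs. Over all windows, 32.7% held GGGCGG, 41.5% TTGGC, 27.7% ACAAT and 12.4% TATAAA on either strand.

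The first comparison asked how the connexin genes changed as striatal astroglia matured. The cells with an astroglial sub-cluster were summed per library and the ages compared with edgeR's quasi-likelihood test. Calls needed a Benjamini-Hochberg adjusted p no larger than 0.05 together with a log2 fold change of 1 or more in either direction. Gja1, Gjb6, Gjb2 and Gjc3 were higher at 3m and Gjc1 was lower. These are 5 of 8 genes called, with 4 higher and 1 lower, where 32.1% of the 13530 genes tested were called, 15.8% as higher and 16.3% as lower. Gjb1, Gja4 and Gja5 had too few UMIs in astroglia to enter the test, so the count covers the 5 genes that passed the filter on low counts. Gjc3 passed this filter through the 3m libraries and Gjc1 through the P3 libraries, in each case the age where the gene was higher. The direction of both was thus tied to their entry, and neither adds support to the count. The median log2 fold change over these 5 genes was 2.63, the value of Gjc3 itself, so this median adds no support either. Over all genes tested the median was -0.04. Of the calls over all genes 49.3% were higher at 3m, and 38.6% when only library totals were used for scaling.

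Gja1, the most widely used astrocyte connexin, stood at 1477, 1483 and 1235 CPM in the 3m libraries and at 421, 347 and 438 CPM at P3. The lowest adult library lay well above the highest P3 library. The means were 1398 ± 141 CPM (SD, n = 3) and 402 ± 48.6 CPM (SD, n = 3), and the log2 fold change was 1.99 (SE 0.20, edgeR adjusted p = 3.49e-06).

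Gjb6, the second astrocyte connexin, was close to absent at P3 and abundant at 3m. It stood at 381, 347 and 344 CPM in the 3m libraries, from 441, 639 and 507 UMIs. At P3 it stood at 2.78, 1.83 and 3.17 CPM, from 62, 56 and 78 UMIs. The log2 fold change was 7.31 (SE 0.23, edgeR adjusted p = 1.12e-09), and the 2 sets of libraries did not overlap.

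Gjb2 was the least detected of the astrocyte subunits. It reached 9.50, 13.6 and 21.1 CPM at 3m, from 11, 25 and 31 UMIs, and 1.16, 0.85 and 1.26 CPM at P3. All adult libraries lay above all P3 libraries, and the adult libraries differed among themselves by over 2-fold. The log2 fold change was 3.96 (SE 0.36, edgeR adjusted p = 1.81e-06).

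Gjc1, a connexin better known from vessels, went the other way. It stood at 53.7, 39.9 and 49.9 CPM at P3, from 1198, 1223 and 1226 UMIs. The 3m libraries held 5, 1 and 0 UMIs, that is 4.32, 0.54 and 0 CPM. The ages did not overlap, and the log2 fold change was -4.94 (SE 0.46, edgeR adjusted p = 1.85e-06). The mural marker list summed to 77 CPM in the 3m astroglia and 105 CPM in the P3 astroglia, and the endothelial list to 1 and 5 CPM. Their part in the Gjc1 difference was not tested.

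Gjc3, an oligodendrocyte connexin, rested on few UMIs: 2, 7 and 6 at 3m and 22, 12 and 12 at P3. These are 1.73, 3.80 and 4.07 CPM against 0.99, 0.39 and 0.49 CPM, without overlap. The log2 fold change was 2.63 (SE 0.58, edgeR adjusted p = 0.00212). The oligodendrocyte marker list was higher in the same adult libraries. At 3m the astroglial CPM of Gjc3 was 0.670% of its CPM in oligodendrocytes, and that of Gjb1 0.398%, where the same ratio was 0.510% for Mog, 0.448% for Mag, 0.456% for Opalin, 8.53% for Mobp and 19.98% for Mbp. When cells with a UMI of at least 2 of the oligodendrocyte markers were left out, Gjc3 no longer passed the filter on low counts, and the same held when any one P3 library was left out.

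**Figure D1:**
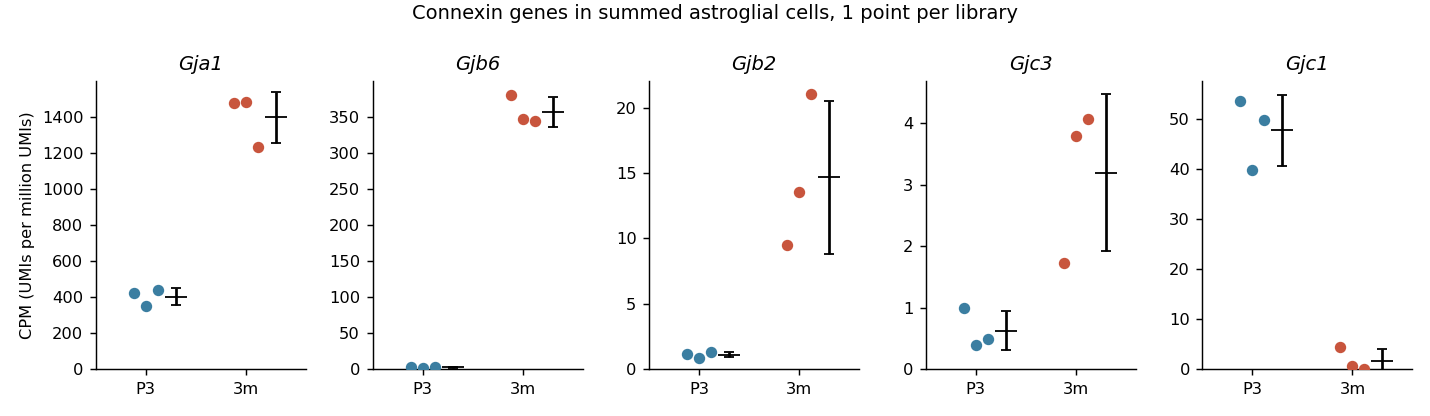
CPM (linear axes from 0) of 5 connexin genes in the summed astroglial cells of each library, P3 in blue and 3m in red. Points are libraries and the bar beside them gives the mean ± SD of 3 libraries. Gja1 rose from a mean of 402 to 1398 CPM and Gjb6 from 2.59 to 357 CPM, while Gjc1 fell from 47.8 to 1.62 CPM.

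None of the 12 other connexin genes had enough UMIs in astroglia to be tested. Of the 3 pannexin genes, which form related membrane channels, Panx1 fell by 4.19 on the log2 scale (SE 0.64, edgeR adjusted p = 0.000146), from 217, 245 and 267 UMIs at P3 to 0, 0 and 2 at 3m. Of 13 partners of gap junction proteins, 2 were called higher, 1 lower and 10 were not called. Over all genes tested, 15.8% were called higher and 16.3% lower, so the partners as a list did not exceed these shares. Tjp1, the scaffold ZO-1 that binds the tail of several connexins, was higher by a log2 fold change of 1.21 (SE 0.16, edgeR adjusted p = 3.28e-05). Ctnnb1, beta-catenin of the adherens junction, was lower at -1.44 (SE 0.28, edgeR adjusted p = 0.000825). The kinase gene Prkca was called higher at 1.16 (SE 0.30, edgeR adjusted p = 0.00614), but its log2 fold change was -0.00839 within sub-clusters 0, 1, 2, 7, 9, 11 and 14 and -0.213 in a stricter set of cells (more than 1000 genes, mitochondrial share below 5%). Hepacam (GlialCAM, an adhesion protein of astrocyte junctions) had a log2 fold change of 0.84 and Mlc1, its partner at the endfoot, of 0.36, and neither was called.

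The share of astroglial cells with at least 1 UMI was compared at equal depth, since adult cells were shallower. Each cell was thinned at random to 2000 UMIs, which left out 212 of 1118 adult cells and 1113 of 8874 P3 cells. Gja1 was then found in 90.4%, 89.4% and 89.1% of adult cells and in 53.9%, 47.0% and 55.0% of P3 cells. Gjb6 was found in 49.2%, 47.4% and 46.7% of adult cells and in 0.671%, 0.536% and 0.775% of P3 cells. Both genes separated the ages without overlap.

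Oligodendrocytes, which should lack both genes, gave the background at the same depth. Between 1.69% and 4.08% of them held a Gja1 UMI and between 0.422% and 0.985% a Gjb6 UMI in the 3m libraries. These adult cells do not measure the background of the P3 libraries, where the endothelial cluster END_7 held 1 Gjb6 UMI (0.0537 CPM, 95% counting interval 0.00136 to 0.299 CPM) against a mean of 2.59 CPM in the astroglia. The 2 oligodendrocyte clusters had median depths of 4586.5 and 8829 UMIs before thinning.

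Gjb2 was found in 2.77% ± 0.41 (SD, n = 3) of adult and 0.247% ± 0.042 (SD, n = 3) of P3 cells. Gjc1 was found in 0 of 906 adult cells, where 3 cells, the limit set by a count of 0, would be 0.331%. This limits cells with a UMI at the thinned depth, not cells that express the gene. The share was 8.49% ± 1.05 (SD, n = 3) in P3 cells. Gja1, Gjb6, Gjb2 and Gjc1 separated the ages without overlap. Each had an exact permutation p of 0.1, two-sided, and 0.2 after Benjamini-Hochberg adjustment over the 8 genes. Only the 8 genes were tested in this way, so no share over all genes can be set beside this separation. An exact permutation test of 3 libraries against 3 cannot go below 0.1.

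Without thinning the picture for Gja1 changed. It was then found in 93.4%, 84.4% and 87.5% of adult cells and in 88.9%, 80.8% and 74.1% of P3 cells, and the ages overlapped (exact permutation p = 0.3, two-sided). The other 3 genes stayed apart: 66.2% ± 12.3 against 2.02% ± 0.50 of cells (SD, n = 3) for Gjb6, 5.69% ± 1.83 against 0.950% ± 0.312 for Gjb2, and 0.844% ± 1.31 against 29.9% ± 7.84 for Gjc1.

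**Figure D2:**
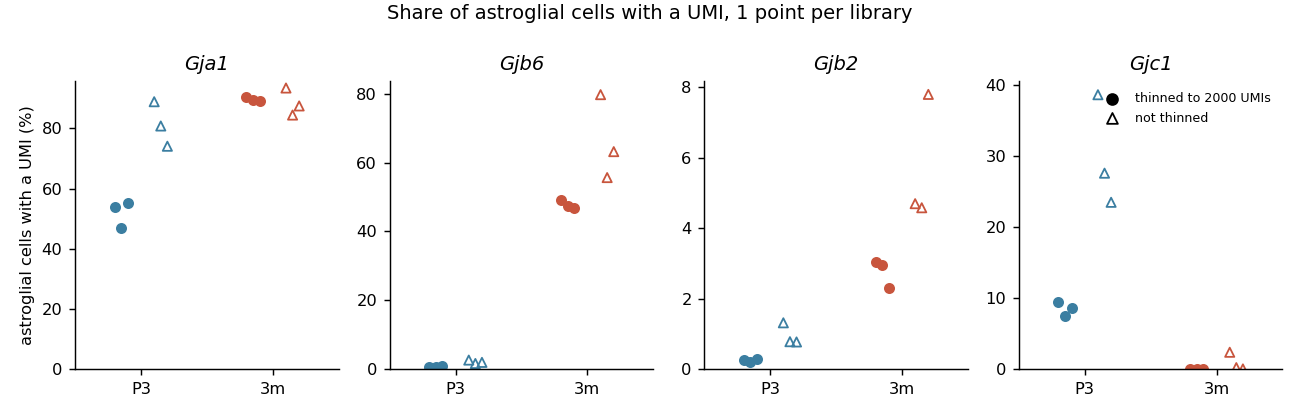
Percentage of astroglial cells with at least 1 UMI of Gja1, Gjb6, Gjb2 and Gjc1 at P3 (blue) and 3m (red), 1 point per library, with filled circles for cells thinned to 2000 UMIs and open triangles for cells as deposited. The Gja1 shares of the ages overlap in the deposited cells and separate at equal depth, 89.6% against 52.0% on average.

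Cells that held both Gja1 and Gjb6 made up 44.2%, 45.2% and 41.8% of the thinned adult cells and 0.568%, 0.335% and 0.493% of the P3 cells. Among adult cells with a Gjb6 UMI, 89.7%, 95.3% and 89.4% also held Gja1. Among adult cells without one, the shares with Gja1 were 91.0%, 84.0% and 88.9%. The first share was the higher one in 3m replicates 2 and 3 and the lower one in 3m replicate 1.

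The deposited clusters split the genes into an astroglial, an oligodendrocyte and a vascular set. These levels are descriptions, since the clusters were defined from the same cells. In the adult astrocyte clusters AST_3m_5 and AST_3m_14, Gja1 stood at 1395 and 1439 CPM and Gjb6 at 340 and 405 CPM. Among P3 clusters, AST_P3_15 came closest, with 963 CPM of Gja1 and 21.8 CPM of Gjb6. AST_P3_0 held 599 CPM of Gja1, and the dividing progenitor clusters GPC_9 and GPC_8 held 231 and 145 CPM.

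**Figure D3:**
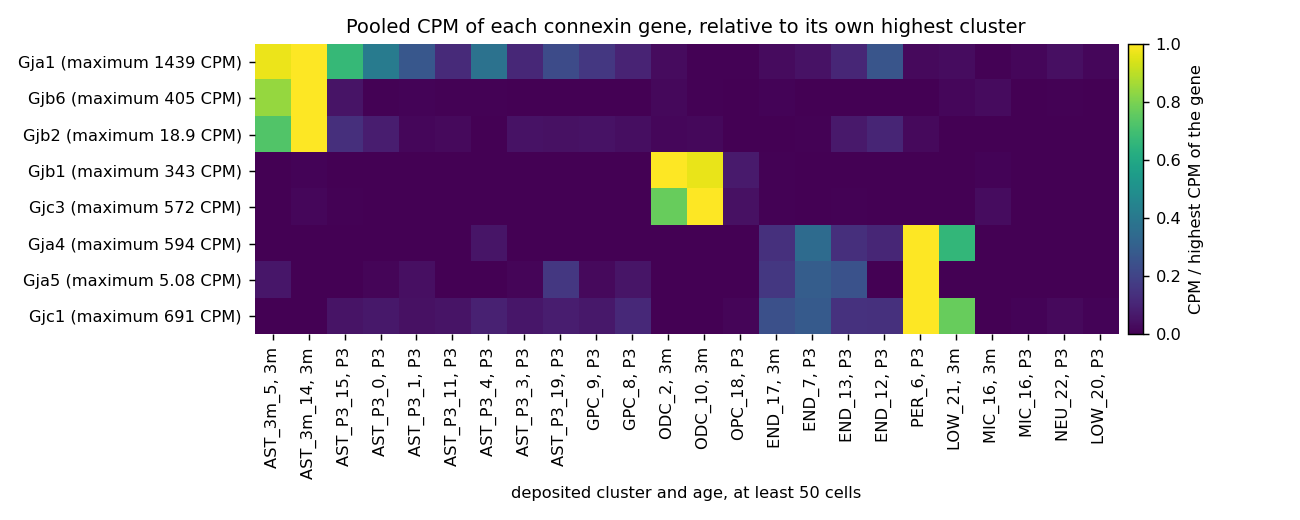
Pooled CPM of each connexin gene (rows) in each deposited cluster with at least 50 cells of an age (columns), coloured relative to the gene's own highest cluster, whose CPM stands beside its name. Gja1, Gjb6 and Gjb2 peaked in adult astrocyte clusters, Gjb1 and Gjc3 in the oligodendrocyte clusters, and Gja4, Gja5 and Gjc1 in the pericyte cluster PER_6 of P3.

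The 3 genes whose cluster pattern was most like that of each member, by Pearson's r of log2(CPM + 1) over 23 clusters with at least 50 cells, followed the same division. The clusters share libraries and depth, and r is given as a description. For Gja1 they were Pygb (r = 0.954), the brain form of glycogen phosphorylase, Gpam (0.926) and Tmem47 (0.902). For Gjb6 they were Grin2c (0.916), an NMDA receptor subunit, Olfr287 (0.884) and Hist2h3c2 (0.875). For Gjb2, which had only 168 UMIs, they were Nat8f5 (0.872), Smyd1 (0.859) and the adrenergic receptor gene Adra1a (0.844).

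The most alike genes of Gjb1 were Fa2h (0.992), which makes hydroxylated myelin lipids, Erbb3 (0.976) and Enpp6 (0.974). For Gjc3 they were Fa2h (0.974), Gjb1 itself (0.971) and Plxnb3 (0.962). Gja4 was most like Tbxa2r (0.984), the thromboxane receptor, Cd248 (0.981) and Tbx2 (0.976), and Gjc1 most like S100a11 (0.927), Ifitm2 (0.923) and Tgfb1i1 (0.916). Gja5 had under 100 UMIs and was left out.

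Among the astroglial sub-clusters of P3, sub-cluster 11 stood apart for Gjb6 and Gja1. It is described here after its values were seen, with no test. Its Gjb6 level was 19.02, 17.08 and 32.04 CPM in the P3 libraries, from 12, 17 and 23 UMIs, against 2.73, 1.02 and 2.06 CPM in P3 sub-clusters 0, 1, 2 and 9. Its Gja1 level was 1024, 879 and 893 CPM against 492, 413 and 536 CPM. Gjb6 was thus between 6.97 and 16.8 times and Gja1 between 1.66 and 2.13 times as high in each library. Gjb2 did not stand apart in this way. It gave 3, 4 and 0 UMIs in sub-cluster 11, that is 4.76, 4.02 and 0 CPM. Its mean of 2.92 CPM lay near the means of sub-clusters 1 (3.52 CPM) and 9 (2.78 CPM). Aqp4, the water channel of the astrocyte endfoot, was 3.26 to 3.44 times as high in the same cells, and Gjc1 0.746 to 1.08 times.

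In the other P3 sub-clusters, Gjb6 lay between 0 and 10.48 CPM in the libraries that gave at least 20 cells, the upper end from 3 UMIs in sub-cluster 10, while Gja1 ranged from 120 to 711 CPM. The lowest Gja1 levels were in sub-clusters 2, 6 and 10, and sub-clusters 6 and 8 were the dividing ones. Gjc1 was highest in dividing sub-cluster 6, at 93.9, 67.0 and 100.5 CPM, and in sub-cluster 12, at 118 CPM in its only large library.

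Among the adult sub-clusters, sub-cluster 7 had the most cells. It held 1527 and 1204 CPM of Gja1 and 294 and 333 CPM of Gjb6 in 3m replicates 2 and 3. Sub-cluster 13 held 1717 and 1644 CPM of Gja1 and 488 and 471 CPM of Gjb6 in the same libraries. Sub-cluster 14, almost whole from 3m replicate 1, held 1513 and 384 CPM. In sub-cluster 16 Gja1 stood at 481 CPM and Gjb6 at 130 CPM in 3m replicate 2, and the oligodendrocyte markers summed to 15985 CPM there. That list was 329 CPM in sub-cluster 7 and 1348 CPM in sub-cluster 13, and its part in the low connexin levels was not tested.

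The deposited pseudotime, an order of cells computed from their expression along a lineage that ends in the adult sub-clusters 7 and 14 and cut into bins, covered 5879 cells. The order used the expression of these same cells, so the profiles are descriptions. Gja1 rose in 2 steps within P3: from 57.0 CPM in bin 2 to 253 CPM in bin 8, down to 115 CPM in bin 11, and up to 456 CPM in bin 13 and 751 CPM in bin 14. The adult bins 16 to 19 held 1157, 1408, 1438 and 1442 CPM, and the counting intervals of the last 3 overlapped.

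Gjb6 stayed low through the P3 bins and was highest in the last of them. It lay between 0 and 1.73 CPM in bins 2 to 13 and at 4.07 CPM in bin 14, with a 95% counting interval (exact Poisson) of 2.92 to 5.52 CPM. In the adult bins it rose from 165 CPM in bin 16, with an interval of 119 to 223 CPM, to 317 CPM in bin 17 and 390 CPM in bin 18. The median depth of these bins rose too, from 1875 to 3677 and 5472 UMIs. From 3m replicate 1 came 10 of 123 cells in bin 16, 107 of 225 in bin 18 and 25 of 30 in bin 19. The part of depth and library in the adult profiles was not tested. Gjb2 stood at 2.08 CPM in bin 14, from 21 UMIs, and between 12.9 and 15.7 CPM in bins 16 to 19.

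Gjc1 was highest early, at 90.6 CPM in bin 3 and 98.3 CPM in bin 4, and lay between 36.8 and 58.0 CPM from bin 5 to bin 14. In the adult bins 16 to 18 it was found with 1, 0 and 2 UMIs, that is 3.92, 0 and 1.57 CPM. The step from P3 levels to nearly none fell between bins 14 and 16, where the age of the cells changes too, so pseudotime and age cannot be told apart at that step.

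**Figure D4:**
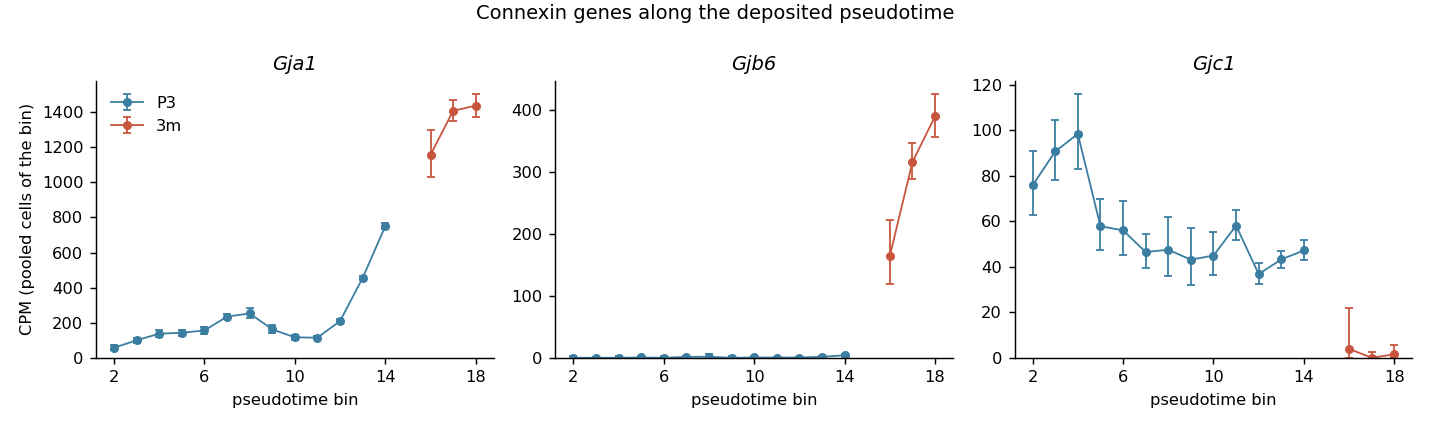
CPM of Gja1, Gjb6 and Gjc1 in the pooled cells of each pseudotime bin with at least 50 cells of 1 age, P3 in blue and 3m in red. Error bars are 95% exact Poisson intervals of the UMI count and cover counting error only. Gja1 climbs within P3 to 751 CPM in bin 14, Gjb6 is at most 4.07 CPM until that bin, and Gjc1 is highest at 98.3 CPM in bin 4.

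The study matched sub-clusters to a reference and read some, with reserve, as astrocytes that may come from adjacent brain regions. These, sub-clusters 3, 4, 5, 10, 12, 13, 15 and 16, are called non-telencephalic here and 0, 1, 2, 7, 9, 11 and 14 telencephalic, and the age effect was compared between the 2 sets. Gjb2 and Gjc3 had a larger age effect in non-telencephalic cells, 2 of the 5 genes tested, where 21.6% of the 10721 genes tested were called, and 10.1% of those tested were called in that direction. For Gjb2 the non-telencephalic UMIs were 0, 14 and 9 at 3m and 0, 2 and 3 at P3, and the CPM 0, 16.01 and 39.07 against 0, 0.33 and 0.42. The telencephalic CPM of Gjb2 were 10.0, 11.3 and 17.7 against 1.31, 1.20 and 1.94. The log2 difference of the age effects was 2.83 (SE 0.82, edgeR adjusted p = 0.0123).

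For Gjc3 the non-telencephalic UMIs were 2, 6 and 2 at 3m and 0, 1 and 0 at P3, and the log2 difference was 5.16 (SE 1.65, edgeR adjusted p = 0.0229). Both calls rest on few UMIs and on single libraries: neither held without 3m replicate 2 (adjusted p = 0.0594 for Gjb2 and 0.0754 for Gjc3), and 3m replicate 1 gave only 17 non-telencephalic cells. Without P3 replicate 3 the adjusted p of Gjb2 was 0.0595 and Gjc3 was not tested, and without 3m replicate 1 the adjusted p of Gjc3 was 0.0635. Without 3m replicate 3 the adjusted p of Gjb2 was 0.0785, and without P3 replicate 2, or without the sub-clusters 15 and 16, Gjc3 was not tested. Oligodendrocyte markers summed to 4448 CPM in the non-telencephalic and 286 CPM in the telencephalic adult cells.

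Gja1 and Gjb6 did not pass this test. Gja1 had a log2 difference of 0.34 (SE 0.22, edgeR adjusted p = 0.317) and Gjb6 of 0.09 (SE 0.31, edgeR adjusted p = 0.882). The difference of Gja1 was called at 0.57 (adjusted p = 0.000640) without 3m replicate 1 and at 0.60 (adjusted p = 0.0240) without the sub-clusters 15 and 16. Non-telencephalic Gjb6 levels were 391, 406 and 404 CPM at 3m, and telencephalic ones 380, 293 and 333 CPM.

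The oligodendrocyte connexins lay almost wholly in the adult clusters ODC_2 and ODC_10. Of all Gjb1 UMIs in annotated adult cells 99.6% lay in these clusters, and of Gjc3 UMIs 99.1%, where these clusters held 54.3% of the cells. Gjb1 stood at 333, 333 and 350 CPM in the oligodendrocytes of the 3m libraries, and Gjc3 at 586, 429 and 452 CPM. The P3 libraries had no oligodendrocyte cluster, so no comparison between ages was possible in these cells.

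Astrocyte connexin UMIs in adult oligodendrocytes were few. The CPM of Gja1 there was 1.92% of that in astroglia, of Gjb6 1.59% and of Gjb2 2.39%, while 6 astrocyte markers gave between 2.43% (Aqp4) and 5.37% (Slc1a2). The Gjb2 ratio rests on 4 oligodendrocyte UMIs. The source of these UMIs was not tested.

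Oligodendrocyte precursors (OPC_18) held Gjc3 at both ages. The 13 adult precursors gave 28 Gjc3 UMIs, 398 CPM with a 95% counting interval of 264 to 575 CPM, and the 94 P3 precursors gave 15 UMIs, 25.2 CPM with an interval of 14.1 to 41.6 CPM. By library the adult cells stood at 440, 402 and 160 CPM, from 4, 8 and 1 cells, and the P3 cells at 66.1, 13.8 and 23.3 CPM. The adult value of 160 CPM was 1 UMI in 1 cell, and its 95% counting interval, 4.06 to 893 CPM, covers all P3 library values. Too few adult cells were present for a test. Gjb1 stood at 14.2 CPM (1 UMI, interval 0.36 to 79.1 CPM) in adult and 25.2 CPM in P3 precursors. The oligodendrocyte marker list was alike in them, 312 CPM at 3m and 318 CPM at P3.

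The vascular connexins were concentrated in few cells. At P3 the pericyte cluster PER_6 held 28.6% of Gjc1 UMIs and 38.9% of Gja4 UMIs in 5.61% of the annotated cells, and the endothelial clusters held 36.2% and 60.1% in 11.6% of the cells. In PER_6, Gjc1 stood at 801, 561 and 654 CPM and Gja4 at 427, 566 and 838 CPM in the P3 libraries. The spread of Gja4 between these libraries was about 2-fold. Gja5, an arterial connexin, gave only 22 UMIs there and stood at 3.29, 7.02 and 5.83 CPM.

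Among adult cells, the mural markers summed highest in 2 small clusters, PER_6 and LOW_21. PER_6 held only 16 adult cells. The cluster labelled LOW_21, of 68 adult cells with a median of 1947.5 UMIs, had the highest sum of mural markers, 42085 CPM with 5 of 7 markers detected, against 17937 CPM in PER_6 at P3. In LOW_21, Gjc1 stood at 512, 482 and 604 CPM and Gja4 at 421, 330 and 411 CPM. The library ranges of LOW_21 and of PER_6 at P3 overlapped for Gjc1 and did not for Gja4. No test was made, because the clusters differ in name, depth and cells.

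The 16 adult PER_6 cells carried markers of more than 1 cell type. The fibroblast markers Col1a1, Col1a2, Dcn and Lum summed to 3953 CPM there, against 299 CPM in PER_6 at P3. Split by these markers after the values were seen, 10 cells with at least 5 fibroblast UMIs carried all 8 Gjb2 UMIs and all 10 Gjb6 UMIs and no Gja4 UMI. The other 6 cells carried all 9 Gja4 UMIs and no UMI of Gjb2 or Gjb6. The 10 cells also held 217 UMIs of the mural list, against 189 of the fibroblast list. At P3 the 73 PER_6 cells past the same cut held no Gjb2 or Gjb6 UMI and 587 Gja4 UMIs (644 CPM). The adult pattern was thus not seen at P3, and which cells carry these genes was not tested. Gjb2 stood at 165 CPM over the 16 cells (95% counting interval 71.1 to 325 CPM), the highest Gjb2 level of any cluster with at least 10 cells of an age, and 5 of the 16 cells held it. Gjb2 was found in all 3 libraries (4, 1 and 3 UMIs) and Gjb6 in 2 (0, 1 and 9 UMIs). Astrocyte markers summed to 721 CPM in these cells, against 13384 CPM in the adult astroglia.

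**Figure D5:**
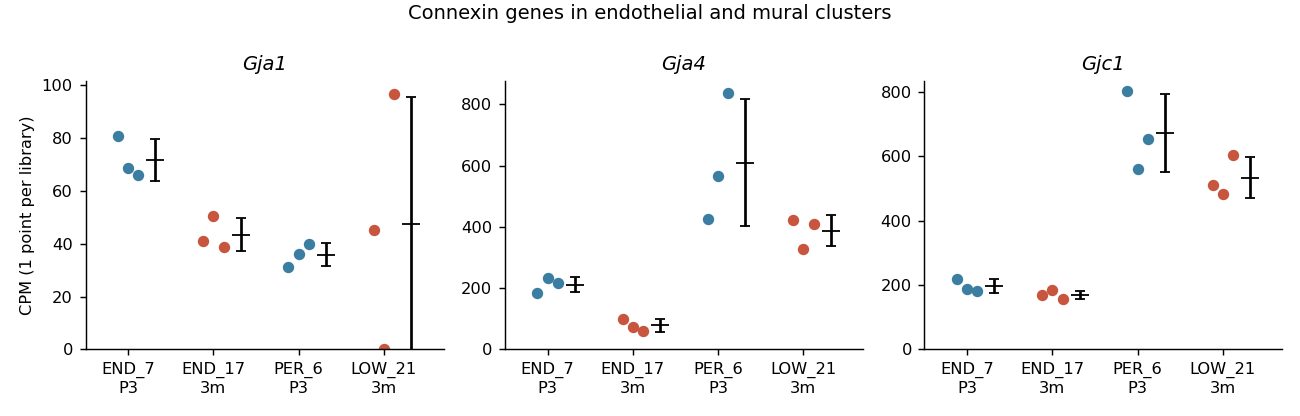
CPM of Gja1, Gja4 and Gjc1 in the main endothelial clusters (END_7 at P3, END_17 at 3m) and the clusters with the most mural markers (PER_6 at P3, LOW_21 at 3m), 1 point per library, with the mean ± SD of 3 libraries beside them (the lower error bar of Gja1 in LOW_21 is cut at 0). Gja4 lies between 185 and 232 CPM in END_7 and between 60.8 and 99.6 CPM in END_17, while Gjc1 ranges overlap.

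Endothelial cells of the ages fell into separate clusters, and END_17 of 3m (59, 47 and 57 cells) was compared with END_7 of P3 (173, 172 and 260 cells). Gja4 was lower in the adult cluster. This was the call for 1 of 3 genes tested, where 22.3% of the 10271 genes tested were called and 10.7% were called as lower. Gja4 stood at 99.6, 73.9 and 60.8 CPM at 3m and at 185, 232 and 217 CPM at P3, without overlap. The log2 fold change was -1.51 (SE 0.22, edgeR adjusted p = 2.12e-05).

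Gja1 stood at 40.9, 50.6 and 38.9 CPM in END_17 and at 80.8, 68.6 and 65.9 CPM in END_7. The libraries did not overlap, but the log2 fold change of -0.85 (SE 0.22, edgeR adjusted p = 0.00511) was under the size asked for a call. Gjc1 stood at 169, 183 and 156 CPM against 220, 188 and 180 CPM, with overlap, and its log2 fold change was -0.32 (SE 0.17, edgeR adjusted p = 0.179).

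The endothelial clusters were not pure. Mural markers summed to 6830 CPM in END_17 and 2696 CPM in END_7, haemoglobin genes to 22125 and 12842 CPM, and endothelial markers to 8841 and 4167 CPM. The median cell held 5953 and 26510 UMIs. The part of these differences in the Gja4 result was not tested. Of 12 partner genes tested here, 2 were called higher and 3 lower, beside 11.6% and 10.7% of all genes tested.

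Clusters nearly whole from P3 replicate 3 mixed these patterns. END_12 held 378 CPM of Gja1 with 3565 CPM of astrocyte and 1170 CPM of endothelial markers, and AST_P3_4 held 33.8 CPM of Gja4. In the summed astroglia, Gja4 gave 57 UMIs in P3 replicate 3 against 4 and 8 in the other P3 libraries, and sub-cluster 12 stood at 113 CPM of Gja4, with 2370 CPM of mural markers.

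The last comparison took all barcodes of each library, cells or not, as a whole preparation. In such sums, fewer cells of a type and less RNA per cell cannot be told apart, and oligodendrocytes were found only at 3m while endothelial clusters made up 11.6% of the annotated cells at P3 and 5.18% at 3m. Calls were made for 7 of the 8 genes, 4 of them higher at 3m and 3 lower. Of the 15407 genes tested 34.5% were called, 18.4% higher and 16.1% lower. Gjb1 and Gjc3 passed the filter on low counts through the 3m libraries and Gja5 through the P3 libraries, where each was higher. Their direction was tied to their entry, so these genes add no support to the count. Gjb1 stood at 167, 181 and 178 CPM at 3m against 0.06, 0.32 and 0.34 CPM at P3, a log2 fold change of 9.64 (SE 0.33, edgeR adjusted p = 1.47e-07). Gjc3 had one of 8.93 (SE 0.27, edgeR adjusted p = 8.7e-08).

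The astrocyte genes rose less here than in the annotated astroglia. Gjb6 stood at 143, 125 and 126 CPM against 1.96, 1.48 and 2.36 CPM, with a log2 fold change of 6.28 (SE 0.18, edgeR adjusted p = 8.11e-08). Gjb2 had a log2 fold change of 3.21 (SE 0.28, edgeR adjusted p = 1.84e-05). Gja1 stood at 552, 547 and 454 CPM against 315, 294 and 333 CPM, without overlap. Its log2 fold change of 0.92 (SE 0.14, edgeR adjusted p = 0.000645) was under the size asked for a call.

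The vascular genes were lower in the adult preparations. Gja4 stood at 8.93, 4.76 and 8.04 CPM against 65.1, 43.6 and 81.8 CPM, with a log2 fold change of -2.92 (SE 0.27, edgeR adjusted p = 3.02e-05). Gjc1 had a log2 fold change of -2.69 (SE 0.24, edgeR adjusted p = 2.62e-05). Gja5 had 21, 22 and 21 UMIs at P3 and 0, 0 and 2 at 3m, and its log2 fold change of -2.51 (SE 0.92, edgeR adjusted p = 0.0436) was lost without 3m replicate 1 (adjusted p = 0.165), without 3m replicate 2 (adjusted p = 0.12) and in DESeq2 (adjusted p = 0.0953).

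Many adult astrocyte UMIs lay outside the annotated cells. In 3m replicate 1, 68.5% of all Gja1 UMIs and 69.3% of all Gjb6 UMIs were in the 852 barcodes that the annotation leaves out, against 24.5% and 24.8% in 3m replicate 2 and 23.1% and 22.8% in 3m replicate 3. In the P3 libraries between 0.243% and 1.71% of Gja1 UMIs were outside. Of the 852 barcodes, 836 had a mitochondrial share of at least 10%, the filter of the study. They were rich in astrocyte transcripts: Gja1 stood at 1016 CPM, Gjb6 at 266 CPM and the astrocyte markers at 9799 CPM, against 2743 CPM of astrocyte markers in the annotated cells of that library. The levels of Gja1 and Gjb6 in the left-out barcodes of the other adult libraries were 1084 and 758 CPM and 252 and 209 CPM.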

How the data were processed

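Single-cell libraries (10x Chromium, 3′ end) of ACSA2-enriched striatal cells were made from 3 preparations per age. Per the labels, the authors ran Cell Ranger against mm10 and Seurat 3.1.1. The deposited table holds raw UMI counts for 32285 genes and 16690 barcodes, not normalized, with a table of cluster, sub-cluster and pseudotime bin for the 14373 cells that passed the authors' filter (more than 500 genes, less than 10% of UMIs mitochondrial). Per the paper's methods, Slingshot gave each deposited cell on 1 lineage a pseudotime score, of which only the bins were used. Doublet removal is not given in the sources used here, and no doublet caller was run. The libraries are separate preparations, and p-values measure the spread between them.

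Counts were summed per library over the cells of a comparison and tested with edgeR 4.0.16 (R 4.3.3; TMM, filterByExpr, quasi-likelihood, Benjamini-Hochberg over all genes tested), and with DESeq2 1.42.0 as an alternative. The scripts were tested on simulated data. Counting intervals are exact Poisson (95%) and cover counting error only. Cells were thinned with numpy 2.4.6 (Python 3.11.15) to 2000 UMIs with a fixed seed. Summed depth per comparison set the precision: between 1157485 and 30617140 UMIs in astroglia.

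Replicate numbers are shared between the ages. Deviations of same-numbered libraries correlated at 0.384, 0.158 and 0.131 over 8067 genes in the astroglia, all above 0.1. Other pairs reached like values, 0.179 for 3m replicate 2 with P3 replicate 3 and 0.128 for 3m replicate 3 with P3 replicate 2, so the numbers single out no pairing of these. The fit with the replicate number as a block was also run as a paired fit, which rests on the data, not on a stated shared batch. The genes named were the 8 members, 12 other connexin, 3 pannexin and 13 partner genes, and the 3 genes most alike per member. The members and lists were chosen with earlier results of these data known. Gene positions are GENCODE M21, promoter windows RefSeq. Alternatives tried were other scalings, DESeq2, no filter on low counts, thinning, leaving out each library, the block and other choices of cells.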

Additional observations from a re-analysis of the deposited data

Results flagged for a closer look

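Of the 5 genes that could be tested, 2 had an age effect that differed between non-telencephalic and telencephalic sub-clusters by a test of the difference itself, where 21.6% of all 10721 genes tested were called. For Gjb2 the log2 fold change from P3 to 3m was larger by 2.83 (SE 0.82, edgeR adjusted p = 0.0123) in non-telencephalic than in telencephalic cells, on 23 adult and 5 P3 UMIs in the former. For Gjc3 it was larger by 5.16 (SE 1.65, edgeR adjusted p = 0.0229), on 10 adult UMIs and 1 P3 UMI. Non-telencephalic adult cells came mostly from 3m replicate 2 (261 of 328 cells), without which neither difference was called. No group had the 4 samples that the check for single outlying samples needs.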

How the results depend on the processing

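Leaving out each library, the count of connexin genes called ran from 4 to 5 in the astroglia, from 6 to 7 over all barcodes, stayed at 1 in the endothelial clusters, and ran from 0 to 2 for the age effect between the sets of sub-clusters. Dropping 3m replicate 2 gave 0, as did dropping P3 replicate 3. Dropping 3m replicate 3 gave 1, as did dropping P3 replicate 2. In the endothelial clusters 4 connexin genes were called with no filter on low counts, 3 of them higher (Gjb6, Gjb1 and Gjc3) on 2 to 4 adult UMIs each. The share of all genes called in that fit is not given here, so the count is not read as a result about the connexins. Over all settings, Gja1, Gjb6, Gjb2 and Gjc1 kept their calls in the astroglia. Calls of Gjc3 there were not tested in settings where it fell under the filter. Of the connexin values recomputed, 264 kept their direction and side of the threshold, 8 lost a call, 2 gained one and 2 changed direction. The last were the difference of Gjb6 between these sets, which ran from -0.132 (without 3m replicate 2) to 0.193 when single libraries were left out and was -0.0795 without P3 replicate 3. Among partner genes, the direction of Prkca in the astroglia turned to -0.213 in the stricter set of cells and -0.00839 within telencephalic sub-clusters, and that of Mlc1 to -0.0488 within telencephalic sub-clusters. The cause was not tested. Leaving out cells whose barcode occurs in another library, an alternative chosen after seeing the data, kept all 5 connexin calls in the astroglia. With the replicate block 5 connexin genes were called in the astroglia, 7 over all barcodes, 1 in the endothelial clusters and 2 between the sets of sub-clusters, so the pairing changed no call. Library totals alone, without further scaling, shifted the all-gene median in the astroglia on the log2 scale from -0.04 to -0.24 and the share of calls that were higher from 49.3% to 38.6%, and the 5 connexin calls kept their direction. Thinned to the smallest library, 2716 genes were called in the astroglia against 4344, and 976 against 2289 in the endothelial clusters, and 1350 against 2321 genes were called between those sets without 3m replicate 2. Small counts limit Gjb2, Gjc3 and Gja5, and 3 libraries against 3 limit the exact tests.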
